A study of Mus musculus with 2 samples.

Results

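Cyp11b1 and Cyp11b2 are neighbouring genes for mitochondrial cytochrome P450 enzymes of the adrenal cortex. They are 2 of the 16457 annotated genes with reads in either library, and were chosen by gene name, with every class of transcript model counted. The tissue was adrenal gland of male B6CASTF1/J mice aged 2 months, an F1 hybrid strain with a B6 and a CAST parent, read by long-read RNA sequencing. All samples form 1 group of 2 libraries, with no treatment in the labels, so no contrast between groups exists. Biosample labels number the animals differently while both library descriptions give the same number, so whether they are separate animals is unclear, and the spread between libraries may be technical.

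The enzymes act at the end of the corticosteroid pathway. Cyp11b1 is the 11β-hydroxylase, which turns 11-deoxycorticosterone into corticosterone, the main glucocorticoid of mice, mostly in the zona fasciculata. Cyp11b2 is the aldosterone synthase, which carries the same substrate on to aldosterone in the zona glomerulosa, the outermost zone. Both sit in the inner mitochondrial membrane and take electrons from adrenodoxin reductase (Fdxr) through adrenodoxin (Fdx1). In people, unequal crossing over between the corresponding neighbours makes a chimeric gene that puts aldosterone synthesis under control of ACTH.

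Both genes lie on the minus strand of chromosome 15 in mm10 (GRCm38), with Cyp11b2 upstream of Cyp11b1 in the direction of transcription. Cyp11b1 (ENSMUSG00000075604.5) spans chr15:74834125-74841643 and Cyp11b2 (ENSMUSG00000022589.7) spans chr15:74851010-74856318. The gap between them is 9366 bases and holds no annotated gene. Each gene has 1 annotated transcript of 9 exons in GENCODE M21. The transcript of Cyp11b1 is 3165 nt long and that of Cyp11b2 1625 nt. The 3′ untranslated region is annotated at 1628 bases in Cyp11b1 and 29 bases in Cyp11b2, and the 5′ untranslated region at 31 and 87 bases. The coding parts are 1503 and 1506 bases.

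The coding sequences matched at 86.9% of aligned bases, with 194 substitutions and 3 gap columns, all 3 of them in exon 5. Identity was uneven along the gene. Exon 1 was nearly the same in both at 99.2%, exon 6 matched at 96.4% and exon 7 at 94.9%. Exons 3, 4 and 5 were the most divergent, at 78.5%, 83.3% and 65.2%. The exon with the highest identity, the exon with the lowest and exon 4, whose skipping differed most between the genes, are shown here from the GENCODE transcripts, 5′ to 3′, with capitals for bases that differ from the other gene. For exon 1 only the coding part is given, at chr15:74841368-74841612 and chr15:74855987-74856231. Exon 4 lies at chr15:74838905-74839108 and chr15:74853464-74853667, and exon 5 at chr15:74838494-74838645 and chr15:74853039-74853193.
Cyp11b1 exon 1: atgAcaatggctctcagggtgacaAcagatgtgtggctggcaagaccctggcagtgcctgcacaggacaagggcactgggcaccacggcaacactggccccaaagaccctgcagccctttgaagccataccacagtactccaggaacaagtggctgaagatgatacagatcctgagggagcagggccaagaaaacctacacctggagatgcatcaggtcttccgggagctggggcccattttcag
Cyp11b2 exon 1: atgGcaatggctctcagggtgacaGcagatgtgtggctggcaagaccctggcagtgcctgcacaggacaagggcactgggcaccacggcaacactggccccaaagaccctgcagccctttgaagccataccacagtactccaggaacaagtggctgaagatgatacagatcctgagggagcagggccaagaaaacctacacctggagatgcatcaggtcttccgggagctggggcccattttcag
Cyp11b1 exon 4: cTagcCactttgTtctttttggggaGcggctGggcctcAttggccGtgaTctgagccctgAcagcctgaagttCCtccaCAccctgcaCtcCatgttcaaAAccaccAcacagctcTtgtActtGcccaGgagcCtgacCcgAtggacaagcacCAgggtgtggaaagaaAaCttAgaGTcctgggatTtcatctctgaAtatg
Cyp11b2 exon 4: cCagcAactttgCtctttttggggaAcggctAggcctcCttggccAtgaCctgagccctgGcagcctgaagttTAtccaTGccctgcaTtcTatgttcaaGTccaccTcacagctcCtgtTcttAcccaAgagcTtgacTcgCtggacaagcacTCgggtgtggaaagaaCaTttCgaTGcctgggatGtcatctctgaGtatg
Cyp11b1 exon 5: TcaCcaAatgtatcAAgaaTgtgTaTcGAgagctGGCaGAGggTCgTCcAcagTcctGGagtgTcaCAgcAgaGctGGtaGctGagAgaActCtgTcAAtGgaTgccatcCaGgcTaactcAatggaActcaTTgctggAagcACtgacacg
Cyp11b2 exon 5: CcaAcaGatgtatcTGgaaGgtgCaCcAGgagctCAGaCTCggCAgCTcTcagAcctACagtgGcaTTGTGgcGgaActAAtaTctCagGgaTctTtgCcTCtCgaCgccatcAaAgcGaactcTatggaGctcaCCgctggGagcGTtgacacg
The first exons differ at 2 bases in 245, and the longest run without a difference over the whole coding sequence is 244 bases. A read that covered little beyond such stretches would carry few differences to place it by; how reads were placed between the genes was not tested.

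**Figure D1:**
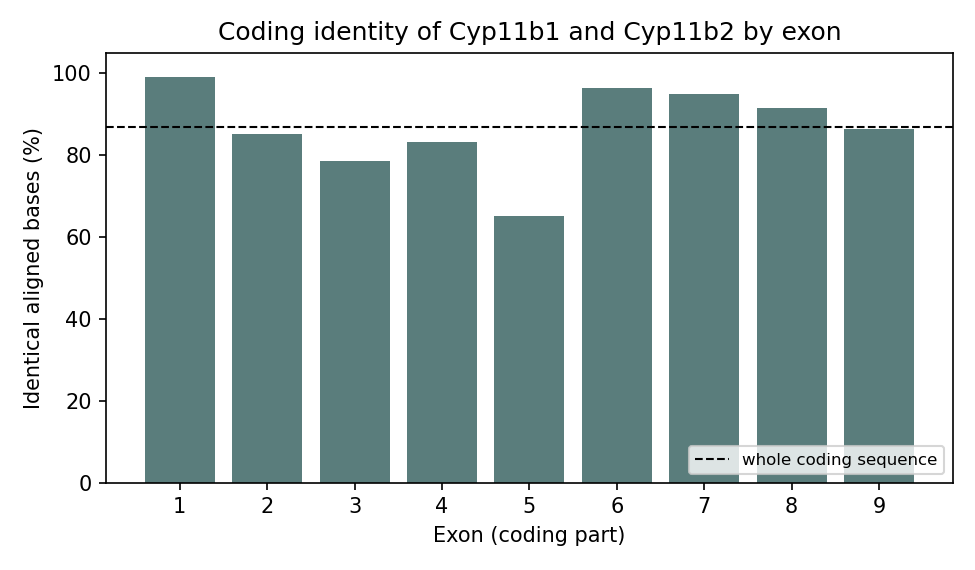
Identical aligned bases in percent for the coding part of each of the 9 exons, with the value over the whole coding sequence as a dashed line. Exon 1 stands highest at 99.2% and exon 5 lowest at 65.2%.

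Cyp11b1 was among the most abundant messages of the gland and Cyp11b2 lay below it in both libraries. Cyp11b1 had 6223 reads in replicate 1 and 6342 in replicate 2, which is 7550 and 9656 reads per 1000000 library reads (CPM). Cyp11b2 had 1042 and 1345 reads, or 1264 and 2048 CPM. The genes did not overlap in either library, and both stood higher in replicate 2. The means were 8603 ± 1489 CPM for Cyp11b1 and 1656 ± 554 CPM for Cyp11b2 (SD, n = 2). By reads, Cyp11b1 ranked 6 in replicate 1 and 4 in replicate 2, and Cyp11b2 ranked 65 and 27, among 15067 and 14582 genes with reads. In bulk tissue, fewer cells of a zone and less RNA per cell cannot be told apart.

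The ratio of Cyp11b1 to Cyp11b2 reads was 5.97 in replicate 1 (95% interval 5.59 to 6.38) and 4.72 in replicate 2 (4.45 to 5.0). Cyp11b2 thus held 14.3% of the reads of the pair in replicate 1 and 17.5% in replicate 2. The libraries differed in this ratio (two-sided Fisher's exact test, p = 1.5e-07), a test that compares these libraries only. The intervals, from Wilson limits of the share, cover counting error only. Each read was counted once, with no scaling for length, and the files carry no molecular identifiers. Divided by the annotated transcript lengths, the levels were 2386 and 3051 CPM per kb for Cyp11b1 and 778 and 1260 CPM per kb for Cyp11b2, a ratio of 3.07 and 2.42. These values depend on the annotated ends. Unannotated models of Cyp11b2 mostly ended 1275 to 2098 bases past the annotated end of its 1625 nt transcript. Those of Cyp11b1 ended on either side of its annotated end, many of them 746 bases short. The length trend removed further below used the same annotated lengths.

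**Figure D2:**
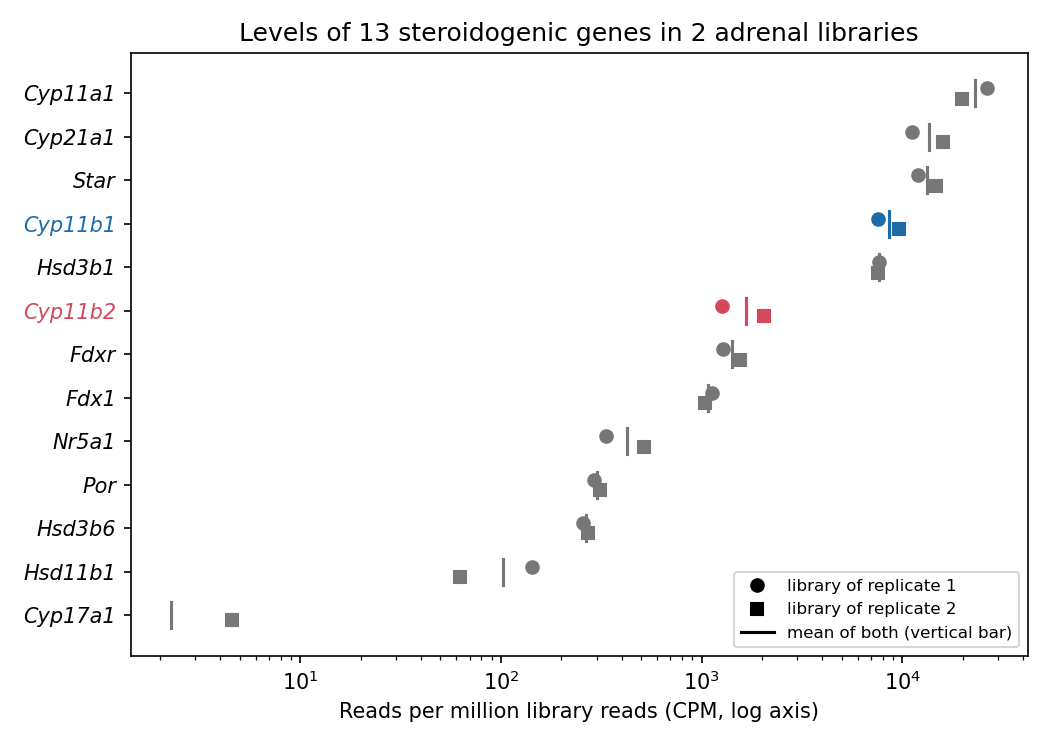
Level in CPM on a log axis for 13 genes of steroid synthesis with reads, as circles for replicate 1, squares for replicate 2 and a bar at the mean of both. Cyp11b1 (blue) lies near Hsd3b1, and Cyp11b2 (red) lies near Fdxr; Cyp17a1 had 0 reads in replicate 1, which a log axis cannot show.

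Set on the scale of effective library sizes (TMM), Cyp11b2 was higher in replicate 2 by 0.59 on the log2 scale and Cyp11b1 by 0.25. Both passed the exact binomial test between the libraries with Benjamini-Hochberg adjustment over all genes tested (adjusted p = 1.9e-21 for Cyp11b2 and 9.08e-21 for Cyp11b1). Neither reached a 2-fold ratio, so neither met the full rule for a call. Of 8063 genes tested, 893 (11.1%) passed the adjusted p alone, 286 of them (3.55%) with more reads in replicate 2, and 275 (3.41%) also reached 2-fold. Of the 275, 85 (30.9%) were higher in replicate 2, a share that was 49.4% when libraries were scaled by their totals. With a trend of the log2 ratio on transcript length removed, Cyp11b1 moved to 0.12 and Cyp11b2 to 0.72, and both still passed (adjusted p = 0.000198 and 1.2e-31).

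Enzymes and carriers that work with the pair differed between the libraries in both directions. The list held 14 genes, of which 12 were tested. With the members included, 5 passed the adjusted p with more reads in replicate 2 and 4 with more in replicate 1, and only Hsd11b1 was also past 2-fold. The median log2 ratio of the list was 0.09, against 0.01 over all genes tested. With the trend on transcript length removed, 6 passed with more reads in replicate 2 and 2 with more in replicate 1. Over all 8063 genes tested, 481 passed the adjusted p in that setting. Genes with more reads can pass at smaller ratios. Cyp11a1, which makes pregnenolone from cholesterol, had 26354 CPM in replicate 1 and 19885 CPM in replicate 2 and passed with fewer in replicate 2 (log2 ratio -0.51, adjusted p = 1.62e-222). Cyp21a1, the 21-hydroxylase that makes the substrate of both members, had 11141 and 15927 CPM and passed with more in replicate 2 (log2 ratio 0.41, adjusted p = 6.87e-87). Star, which brings cholesterol into mitochondria, also passed with more reads in replicate 2, at 12009 and 14672 CPM (log2 ratio 0.19, adjusted p = 9.98e-18), but not with the length trend removed (0.02, adjusted p = 0.663).

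The electron carriers stood well below Cyp11b1 in level. They were close to Cyp11b2 in replicate 1, where it had 1264 CPM, and below it in replicate 2, where it had 2048 CPM. Fdxr had 1286 and 1556 CPM and did not pass the test (log2 ratio 0.17, adjusted p = 0.053), but passed with the length trend removed (0.20, adjusted p = 0.0284). Fdx1 had 1121 and 1037 CPM and passed with fewer reads in replicate 2 (log2 ratio -0.21, adjusted p = 0.0344). With the length trend removed its log2 ratio turned to 0.28 and passed that way (adjusted p = 0.00386). Nr5a1, the nuclear receptor that drives steroidogenic genes, had 334 and 519 CPM and passed with more in replicate 2 (log2 ratio 0.54, adjusted p = 0.000119). Hsd11b1, which regenerates active glucocorticoid, had 143 and 62.4 CPM and was called lower in replicate 2 (log2 ratio -1.28, adjusted p = 5.66e-06). Hsd11b2, which inactivates glucocorticoid, had 0 reads in both libraries, which allows up to 3.64 and 4.57 CPM. Cyp17a1, the 17α-hydroxylase, had 0 and 3 reads.

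Of the other 4 mitochondrial P450 genes of the list only Cyp11a1 had more than 11 reads in a library. Cyp27a1, the sterol 27-hydroxylase, had 11 and 10 reads, and the vitamin D enzymes Cyp24a1 and Cyp27b1 had 0 in both libraries.

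Markers of the zones in which the members are known to be made were read in both libraries. The 15 genes of the glomerulosa list include Agtr1a, an angiotensin II receptor, at 114 and 140 CPM, Dab2, an endocytic adaptor used as a zone marker, at 175 and 236 CPM, and Hsd3b6, at 257 and 273 CPM. None of these 3 passed the test (adjusted p = 0.700, 0.226 and 1). Of the 11 genes of that list that were tested, 2 passed, both with more reads in replicate 2: Kcnk3, a potassium channel, at 3099 and 3794 CPM (log2 ratio 0.19, adjusted p = 6.88e-05), and Lef1, a Wnt effector, with 9 and 24 reads (log2 ratio 1.56, adjusted p = 0.0279). With the length trend removed neither passed, at a log2 ratio of 0.03 for Kcnk3 (adjusted p = 0.826) and 1.41 for Lef1 (adjusted p = 0.105). The median log2 ratio was 0.19. Calb1 had 0 reads in both. Beside the ratio of Cyp11b2, the 4 tested cell type markers of the zone had log2 ratios of either sign and none passed; with Agtr1b they took 699 and 614 reads in sum, 0.0848% and 0.0935% of the libraries.

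The fasciculata list had 9 genes with reads, of which 8 were tested. Of these, 3 passed with more reads in replicate 2 and 2 with fewer, at a median log2 ratio of 0.20. With the length trend removed 3 passed with more and 0 with fewer, where 481 of all 8063 genes tested passed. Scarb1, the receptor for cholesterol uptake from HDL, had 1867 and 2932 CPM (log2 ratio 0.55, adjusted p = 1.05e-26), and Akr1b7, an aldo-keto reductase of this zone, had 4508 and 4007 CPM (log2 ratio -0.27, adjusted p = 1.06e-11). With the length trend removed Akr1b7 was at 0.01 and Hsd3b1 moved from -0.11 (adjusted p = 0.00105) to 0.01, neither passing (adjusted p = 1 for both), and Scarb1 still passed (0.47, adjusted p = 1.86e-19). Mc2r, the ACTH receptor, had 72 and 45 reads and did not pass (adjusted p = 0.381).

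Markers of other tissue in the samples differed between the libraries as well. All 5 markers of brown and white fat passed with fewer reads in replicate 2, with sums of 0.904% and 0.434% of the library. Ucp1, the brown fat uncoupling protein, had 1538 and 544 CPM. All 4 haemoglobin genes also passed with fewer reads in replicate 2, with sums of 0.193% and 0.0804%. With the length trend removed all 5 fat markers and all 4 haemoglobin genes still passed, at smaller ratios. The median log2 ratio was then -1.08 instead of -1.56 for fat and -0.72 instead of -1.40 for haemoglobin. Of the 4 capsule markers 3 passed with fewer reads in replicate 2, with sums of 0.0721% and 0.0458%, and Lum was also past 2-fold. The median log2 ratio of the 4 was -0.77, and -0.82 with the length trend removed. The 3 endothelial markers stood higher in replicate 2, with sums of 0.0453% and 0.0670%, and Plvap passed. The 6 chromaffin markers took 1.13% and 1.24%. Of the kidney markers Umod and Slc12a3 had 0 reads and Aqp2 had 6 in each library, and the liver markers Alb and Apoa1 had 0 and 1 reads each. What part these differences have in the ratios of the pair was not tested.

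By the distance of log2(CPM + 1) over the 2 libraries, the genes nearest in level to Cyp11b1 were Hsd3b1 (distance 0.35), the carbonic anhydrase gene Car3 (0.83) and Star (0.90). Hsd3b1, the cortical 3β-hydroxysteroid dehydrogenase, had 7650 and 7597 CPM, so the order of the genes within each library was not the same: Hsd3b1 was the higher in replicate 1 and Cyp11b1 in replicate 2. Nearest to Cyp11b2 were the translation elongation factor Eef2 (0.19), the chaperone Hspa8 (0.27) and Me1, the cytosolic malic enzyme (0.31). The distance uses 2 libraries only.

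Most reads of both genes were on models that matched the annotated transcript intron for intron. For Cyp11b1 these were 5582 of 6223 reads in replicate 1 (89.7%, Wilson 95% interval 88.9 to 90.4) and 5610 of 6342 in replicate 2 (88.5%, 87.6 to 89.2). For Cyp11b2 they were 890 of 1042 reads (85.4%, 83.1 to 87.4) and 1119 of 1345 (83.2%, 81.1 to 85.1). The intervals of the genes did not overlap within either library, with Cyp11b1 the higher. Over all annotated genes, 79.4% and 79.0% of reads were on annotated models. Between the libraries the share did not pass for either gene (Fisher's exact test adjusted over 5280 genes, adjusted p = 0.607 and 0.93), where 0.492% of genes passed the adjusted p and 0.341% also differed by 10 percentage points.

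The remaining reads fell into different classes in the 2 genes. TALON, the program that built the models, defines an incomplete splice match (ISM) as a run of the annotated introns, a suffix if 5′ introns are lacking and a prefix if 3′ introns are, a NIC model as a new chain of known splice sites and a NNC model as one with a new site. The deposited labels did not keep to these definitions throughout. Of Cyp11b1 reads labelled NIC, 59 of 92 and 28 of 52 were on chains with an unannotated splice site, and of those labelled suffix 11 of 223 and 27 of 210. Of 49 unannotated chains of Cyp11b1 found in both libraries, 38 had the same class in both, and of 24 of Cyp11b2, 23 had. The classes are therefore given as labelled. Prefix models held 0.675% and 1.14% of Cyp11b1 reads against 4.89% and 5.35% of Cyp11b2 reads. The NIC class held 1.48% and 0.820% against 4.80% and 6.77%. Counted from the splice sites themselves, reads labelled NIC or NNC whose sites are all annotated were 0.530% (0.378 to 0.744) and 0.378% (0.254 to 0.562) of Cyp11b1 against 4.70% (3.58 to 6.16) and 5.87% (4.74 to 7.26) of Cyp11b2. Those with an unannotated site were 3.23% (2.82 to 3.70) and 3.44% (3.02 to 3.91) against 2.02% (1.32 to 3.06) and 3.05% (2.25 to 4.11), with intervals that overlapped. Models without an intron, classed as genomic, held 140 and 203 reads of Cyp11b1 (2.25% and 3.20%) and 0 reads of Cyp11b2 in both libraries, where 3 reads would be 0.288% and 0.223%. This contrast depends on the gene to which such models were assigned. Directly past the end of Cyp11b2, 29 reads in each library on a model without an intron were counted to a new locus. So were 126 reads past the end of Cyp11b1 in replicate 1. Suffix models were at similar shares, 3.58% and 3.31% against 2.88% and 2.45%, with overlapping intervals.

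**Figure D3:**
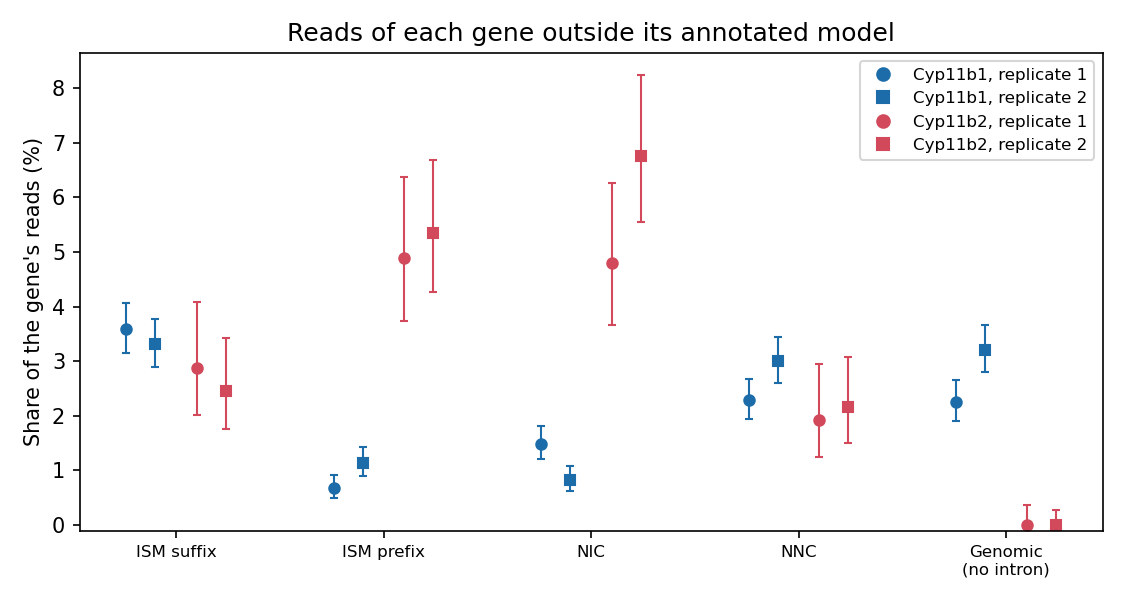
Share of each gene's reads in percent on 5 classes of models other than the annotated one, as labelled, with Wilson 95% intervals, for Cyp11b1 (blue) and Cyp11b2 (red) in replicate 1 (circles) and replicate 2 (squares). Cyp11b2 lies higher for prefix models and the NIC class, and at 0 for models without an intron, where reads counted to new loci past either gene are left out.

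Nearly all suffix models began inside the gene, the exceptions being 8 reads of Cyp11b1 and 1 of Cyp11b2 in replicate 2 that began at the annotated start. Starts are those of models, and incomplete cDNA and starts inside the gene cannot be told apart. The starts were at an annotated exon edge for 74.0% and 97.6% of the suffix reads of Cyp11b1 and for 70.0% and 84.8% of those of Cyp11b2. For Cyp11b1 they began with exon 2 in 48 and 47 reads, exon 3 in 35 and 25, exon 4 in 43 and 39, and exon 8 in 44 and 25, so no single exon held most of them. The 44 reads from exon 8 in replicate 1 were given a start at chr15:74836417. In replicate 2 the 25 reads of the same chain were given the exon edge, chr15:74836421. The shares at an exon edge therefore depend in part on the start given to a model. No model of either gene was listed with a start upstream of the annotated one. At that start, 55 and 64 unannotated models of Cyp11b1 and 27 and 47 of Cyp11b2 were all listed at exactly the annotated base. Model starts may thus have been set to it, which was not tested, so short upstream starts of reads may not be visible.

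Across both libraries 128 spliced chains were seen for Cyp11b1 and 72 for Cyp11b2. Such counts depend on depth, and Cyp11b1 had more reads in both libraries. The 50 and 25 chains seen in both libraries held 97.2% and 96.0% of Cyp11b1 reads, and 98.6% and 97.0% of Cyp11b2 reads. Chains with at least 5 reads in either library numbered 21 for Cyp11b1, with 5992 and 6040 reads, and 10 for Cyp11b2, with 1003 and 1279. The other 107 chains of Cyp11b1 held 91 and 99 reads in all, and the other 62 of Cyp11b2 held 39 and 66.

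Exon 4, 204 bases or 68 codons long, was skipped far more often in Cyp11b2 than in Cyp11b1. In Cyp11b2, 27 reads skipped it and 994 held it in replicate 1 (2.64%, 95% interval 1.82 to 3.82), and 34 skipped and 1278 held it in replicate 2 (2.59%, 1.86 to 3.60). In Cyp11b1, 3 reads skipped it beside 5908 that held it (0.0508%, 0.0173 to 0.149), and 2 beside 5974 in replicate 2 (0.0335%, 0.00918 to 0.122). The share was 52.1 times as high in Cyp11b2 in replicate 1 and 77.4 times in replicate 2, ratios that rest on 3 and 2 reads of Cyp11b1. The intervals of the genes did not overlap. The join of exon 3 to exon 5 that these reads carry is shown for Cyp11b2, with the bases on each side of the join in capitals.
Cyp11b2 exon 3 to exon 5 junction: actacactatagaaGCcaacagatgtatct
Skipping of exon 4 leaves the reading frame in phase by length, as it does for exons 2 and 8, of 156 and 189 bases. These were the only internal exons skipped on their own in more than 1 read of either gene in either library. Exon 8 was skipped by 12 and 9 reads of Cyp11b2 (1.23% and 0.718%) and 13 and 8 of Cyp11b1 (0.221% and 0.136%), which is 5.55 and 5.30 times as high a share in Cyp11b2, with intervals that did not overlap. Exon 2 was skipped by 3 and 10 reads of Cyp11b2 (0.304% and 0.796%) and 8 and 6 of Cyp11b1 (0.138% and 0.103%). Its intervals overlapped between the genes in replicate 1 but not in replicate 2. Exons 3, 5, 6 and 7, whose lengths are no multiple of 3, were skipped on their own by at most 1 read per gene and library, and 1 further read of Cyp11b2 in replicate 1 joined exon 1 to exon 7.

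**Figure D4:**
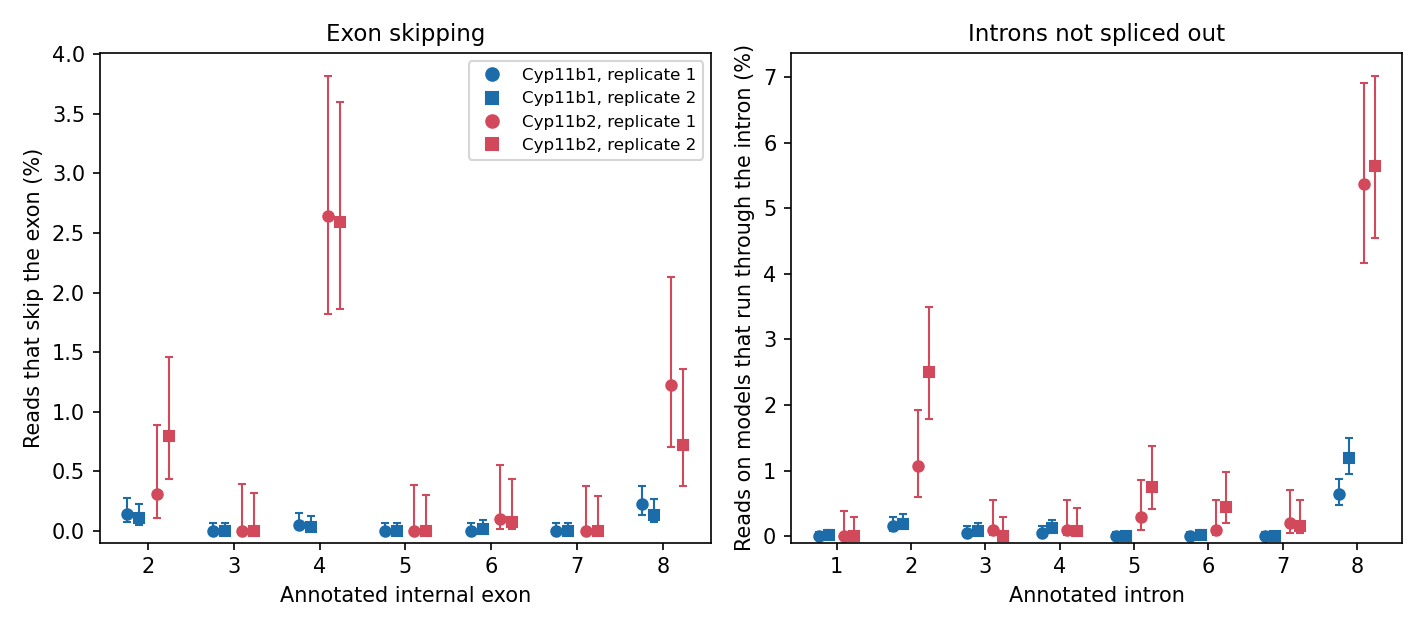
Left, reads that skip each internal exon, in percent of reads that hold or skip it; right, reads on models that run through each intron, in percent of reads that span it, with Wilson 95% intervals, for Cyp11b1 (blue) and Cyp11b2 (red) in replicate 1 (circles) and replicate 2 (squares). Exon 4 at 2.64% and 2.59% and intron 8 at 5.37% and 5.65% stand out in Cyp11b2.

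Intron 8, the last, was the intron least often spliced out in both genes. Models that ran through it held 56 of 1042 spanning reads of Cyp11b2 in replicate 1 (5.37%, 4.16 to 6.91) and 76 of 1344 in replicate 2 (5.65%, 4.54 to 7.02). In Cyp11b1 they held 39 of 6079 (0.642%, 0.470 to 0.876) and 73 of 6135 (1.19%, 0.947 to 1.49). The share was 8.38 and 4.75 times as high in Cyp11b2, and intervals did not overlap within either library. The intron is 266 bases long in Cyp11b2 and 366 in Cyp11b1. A single model, with introns 1 to 7 spliced and none after, held most of these reads, 46 and 65 of Cyp11b2 and 34 and 57 of Cyp11b1. It made up 90.2% and 90.3% of the prefix reads of Cyp11b2. Each intron chain has 1 model with 1 end in each library, so reads of this chain that stopped inside intron 8 cannot be told apart from reads that went on through exon 9.

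Intron 2 was also left in at a higher share in Cyp11b2, at 1.08% (0.602 to 1.92) and 2.50% (1.79 to 3.49), against 0.153% (0.0803 to 0.290) and 0.184% (0.103 to 0.329) in Cyp11b1. Intron 5 was left in by 3 and 10 reads of Cyp11b2 (0.290%, 0.0986 to 0.849, and 0.752%, 0.409 to 1.38) and 0 of Cyp11b1, whose intervals reach 0.0641% and 0.0633%. Intron 6 was left in by 1 and 6 reads of Cyp11b2 (0.0965% and 0.450%) and 0 and 1 of Cyp11b1, with intervals that overlapped in replicate 1 and not in replicate 2 (0.206 to 0.978 against 0.00289 to 0.0928). Introns 1, 3, 4 and 7 had intervals that overlapped between the genes in replicate 1 and in replicate 2. Summed over the 8 introns, 0.910% and 1.20% of spanning events in Cyp11b2 were unspliced, against 0.113% and 0.203% in Cyp11b1.

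Unannotated junctions, skips included, were a larger share of all junctions in Cyp11b2, as given below. Skips of a single exon made up 43 of 66 and 54 of 103 such junction reads of Cyp11b2. In Cyp11b1 they made up 24 of 266 and 17 of 294. The larger share in Cyp11b2 therefore rests on skips and not on unannotated splice sites. A fixed minimum of reads is met more easily in Cyp11b1, with 6223 and 6342 reads against 1042 and 1345. Unannotated junctions with at least 5 reads in each library numbered 13 for Cyp11b1 and 3 for Cyp11b2. The most used was an acceptor of exon 9 in Cyp11b1 whose exon begins at chr15:74835887, 21 bases upstream of the annotated edge, which adds 7 codons' length to the exon. It held 80 of 6079 spanning reads in replicate 1 (1.32%, 1.06 to 1.63) and 98 of 6135 in replicate 2 (1.60%, 1.31 to 1.94). The matching change was in 0 reads of Cyp11b2 in both libraries, which allows up to 0.288% and 0.223%. These limits lie below the intervals of Cyp11b1.

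At exon 8, an acceptor 4 bases inside the annotated edge was used by 24 and 27 reads of Cyp11b1 (0.398% and 0.442%) and 0 of Cyp11b2, which allows 0.289% and 0.225%. The Wilson intervals of the genes overlap in replicate 1, where Cyp11b1 starts at 0.267% and Cyp11b2 reaches 0.369%. In replicate 2 they run from 0.304% in Cyp11b1 and up to 0.287% in Cyp11b2. At exon 4 the same shift was found in both genes, in 12 and 16 reads of Cyp11b1 (0.202% and 0.266%) and 1 and 5 of Cyp11b2 (0.0975% and 0.378%). The first 30 bases of both exons are shown, with capitals for the first 4, which the shifted acceptor leaves out where it was read. Introns usually end in the dinucleotide AG, and the capitals end in AG except in exon 8 of Cyp11b2, where the shifted acceptor had 0 reads.
Cyp11b1 exon 8, first 30 bases: ACAGtcctcaatgtgaatctgtattccatg
Cyp11b2 exon 8, first 30 bases: ACATtggtcctactttatctctactccatg
Cyp11b1 exon 4, first 30 bases: CTAGccactttgttctttttggggagcggc
Cyp11b2 exon 4, first 30 bases: CCAGcaactttgctctttttggggaacggc
Counted from 1 at the first base of the exon, with the base of Cyp11b1 first, the genes differ in these capitals by G4T at exon 8 and T2C at exon 4. The exons begin at chr15:74836421 and chr15:74851607 for exon 8, and at chr15:74839108 and chr15:74853667 for exon 4, reading toward lower coordinates.

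Other unannotated sites held fewer reads. An acceptor 31 bases upstream of exon 6 was used by 17 and 13 reads of Cyp11b1 and 0 of Cyp11b2, and a donor 29 bases past exon 2 by 14 and 12 reads of Cyp11b1 and 0 of Cyp11b2. At 0.284% and 0.214%, and 0.237% and 0.201%, both are below what 0 reads of Cyp11b2 allow at those introns (0.290% and 0.226%, and 0.294% and 0.227%). A difference between the genes was therefore not detectable in either library taken alone. Reads summed over both libraries were not compared. A donor 186 bases past exon 2 went the other way, with 5 and 6 reads of Cyp11b2 (0.489% and 0.455%) and 0 of Cyp11b1, which allows 0.0509% and 0.0502%. A donor 13 bases inside exon 2, joined to exon 3, was read in 3 and 7 reads of Cyp11b2 (0.294%, 0.0999 to 0.859, and 0.531%, 0.257 to 1.09) and 0 of Cyp11b1, where the same donor was joined to exon 4 in 1 and 2 reads. A donor 89 bases inside exon 2 was used by 6 and 17 reads of Cyp11b1 (0.102% and 0.284%) and 0 of Cyp11b2, with intervals that overlapped between the genes in both libraries. An unannotated exon at chr15:74840393-74840499, inside intron 2 of Cyp11b1, was entered by 9 and 8 reads from exon 2 and left for exon 3 by 11 and 7. The acceptor 18 bases upstream of exon 3 was used by 7 and 10 reads of Cyp11b1 (0.119% and 0.167%) and 0 of Cyp11b2. These shares too are below what 0 reads of Cyp11b2 allow at that intron (0.294% and 0.227%). A donor 108 bases past exon 1 was seen in both genes, in 5 and 11 reads of Cyp11b1 and 0 and 3 of Cyp11b2. Over all junctions, 0.557% and 0.609% of those of Cyp11b1 were unannotated, and 0.813% and 0.986% of those of Cyp11b2, skips included.

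The 3′ ends can be read only from unannotated models, since an annotated model is listed with its annotated ends. Their ends repeated at a few positions. In Cyp11b1 they lay 746 bases short of the annotated end in 266 and 168 reads, 1507 bases past it in 224 and 240 reads, and 2572 bases past it in replicate 1 (111 reads) or 2562 in replicate 2 (219 reads). In all 54.1% and 63.4% of reads on such models ended past the annotated end. In Cyp11b2 they lay 1276 and 2098 bases past the annotated end in replicate 1, with 66 and 86 reads, and 1275 and 2097 bases past it in replicate 2, with 76 and 145 reads. These ends took 100% of the unannotated-model reads of replicate 1, and 97.8% of those of replicate 2 ended past the annotated end.

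RefSeq ends Cyp11b1 767 bases short of the GENCODE end, near the model end at 746, and ends Cyp11b2 392 bases past it, at none of the model ends. The ends are those of models, not of reads. Of 49 unannotated chains of Cyp11b1 found in both libraries, 25 had ends within 20 bases of each other, with 107 of 464 and 109 of 479 of the reads. For Cyp11b2 it was 18 of 24, with 123 of 137 and 161 of 186 reads. The end given to a chain of Cyp11b1 was therefore often another one in the other library.

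**Figure D5:**
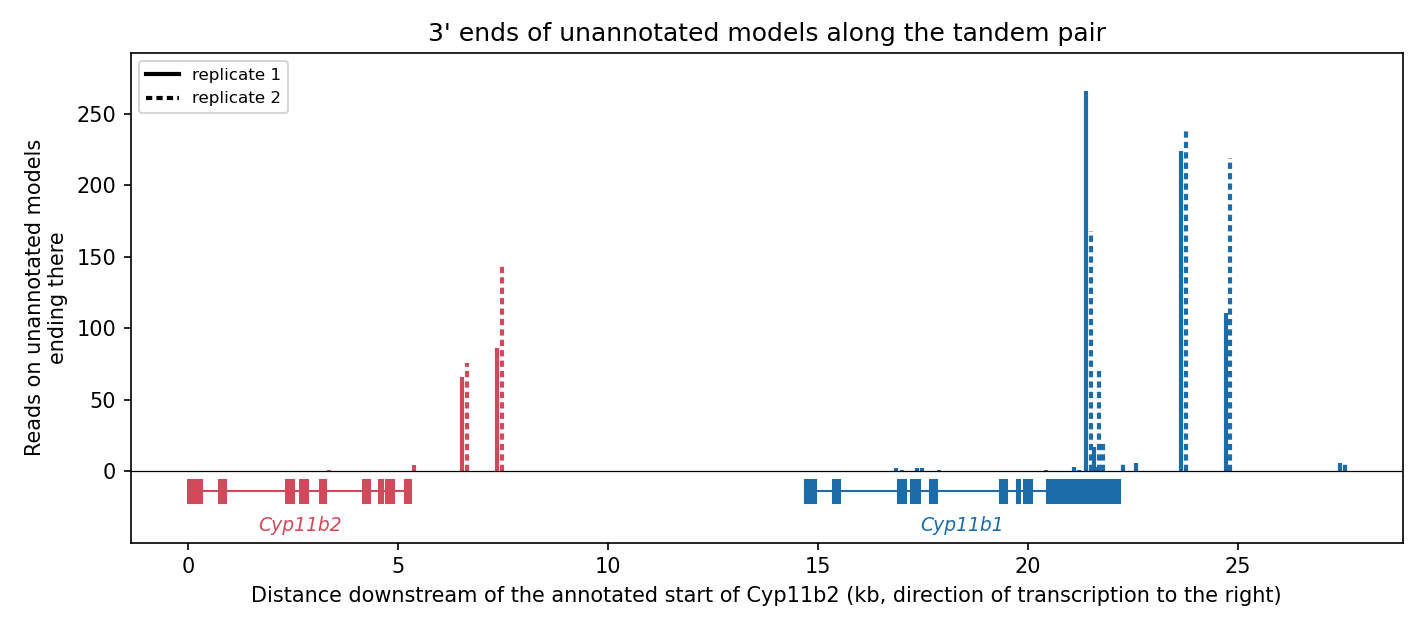
Reads on unannotated models by the 3′ end of the model, against distance in kb downstream of the annotated start of Cyp11b2, for replicate 1 (solid) and replicate 2 (dotted), with the annotated exons of both genes below. Ends of Cyp11b2 models fall in the gap, the farthest 2098 bases past the gene, and ends of Cyp11b1 models fall on its last exon and up to 5286 bases past it.

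No model joined the genes. Among 139 models of the locus in replicate 1 and 173 in replicate 2, of whatever gene assignment, none had exons on both genes. A count of 0 allows 3 reads, or 0.0413% and 0.0390% of the reads of the pair and 0.288% and 0.223% of those of Cyp11b2. The farthest 3′ end of Cyp11b2 left 7268 bases to the start of Cyp11b1. Past the other end, 5 reads in each library joined exon 8 of Cyp11b1 to a new last exon at chr15:74828839-74829557, in place of exon 9.

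Models without an intron lay at the 3′ end of each gene, on its strand. At Cyp11b1 they held 266 reads in replicate 1 and 203 in replicate 2. In replicate 1, 137 of these lay inside the last exon at chr15:74834871-74835537 and were counted to Cyp11b1, whereas 126 at chr15:74831553-74834125 were counted to a new locus, named antisense because it lies opposite Gml2. In replicate 2 the reads over that stretch, 133 at chr15:74831563-74834871, were counted to Cyp11b1. The same region was thus assigned differently in the libraries. With the reads of the new loci added, the ratio of the pair was 5.93 and 4.62. At Cyp11b2, 29 reads in each library formed a new intergenic locus that began at the annotated end and reached 2098 and 2097 bases past it.

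Genes next to the pair were read far less. Ly6k, downstream, had 45 and 25 reads, Gml had 0 in both, and Gml2, on the opposite strand past Cyp11b1, had 16 and 5, all on models without an intron. Upstream of Cyp11b2, 2010109I03Rik had 51 and 104 reads and was called higher in replicate 2 (log2 ratio 1.24, adjusted p = 5.79e-06). Opposite-strand reads within the spans were few, 7 and 3 at Cyp11b1 and 1 and 0 at Cyp11b2. The sources used here do not say how strand was assigned.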

How the data were processed

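Each library has 1 table in which the authors deposited whole read counts per transcript model, not normalized, and 1 file of exon coordinates. Per the deposited notes, reads were aligned to mm10 and annotated against GENCODE M21; the models name TALON as their source. No source used here gives the aligner or the versions. The deposited exon number and length of each model were also used.

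Reads were summed per annotated gene over all classes, with ERCC spike-ins left out, which left 824225 and 656826 reads. A count of 0 allows 3 reads (3.64 and 4.57 CPM). Levels are CPM, mean ± SD over n = 2. Models were matched between libraries by intron chain. Log2 ratios are replicate 2 over replicate 1 on log2(CPM + 1), scaled by TMM (edgeR 4.0.16, R 4.3.3). With 1 library on each side, edgeR's quasi-likelihood test could not be fitted, so genes with at least 20 reads in sum had a two-sided exact binomial test, Benjamini-Hochberg adjusted and called at an adjusted p under 0.05 and 2-fold. Shares of the dominant annotated transcript, where each library had at least 20 reads of the gene, were compared by Fisher's exact test (two-sided) and called at 10 percentage points. Both were tested on simulated counts with counting error only and changes larger than the limits for a call. The simulation therefore does not show how often genes pass under real spread between libraries. Tests compare these libraries only. Wilson 95% intervals cover counting error only.

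Coding parts were aligned exon by exon (Biopython 1.88) from GENCODE M21 transcripts; a planned identity of proteins and search of promoters were not made, since the tables used here hold neither member. The text names the members, their chains of at least 5 reads in either library, genes of the lists (steroid synthesis, glomerulosa, fasciculata, mitochondrial P450), neighbours and the 3 genes nearest in level. The members and lists were chosen with earlier results of these data known. Python 3.11.15, scipy 1.17.1 and statsmodels 0.14.6 were used; DESeq2 1.42.0 gave alternative size factors.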

Additional observations from a re-analysis of the deposited data

Results flagged for a closer look

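Signals outside the reads counted to the pair were read on its strand. A new antisense locus past the end of Cyp11b1 held 126 reads in replicate 1 and none in replicate 2, where the same stretch was counted to Cyp11b1. A new intergenic locus directly past the end of Cyp11b2 held 29 reads in replicate 1 and 29 in replicate 2. On the opposite strand, models of Gml2 without an intron, downstream of and overlapping the end of Cyp11b1, held 16 reads in replicate 1 and 5 in replicate 2. Each of these counts above 0 exceeds the 3 reads that a count of 0 allows. The study has no control samples to set them against.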

How the results depend on the processing

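Of 60 alternatives, 54 kept the direction and side of the threshold or moved less than the spread between the libraries, 6 moved and none reversed. The 54 include alternatives that could not move. Leaving out 1 of 2 libraries always shifts a mean by less than the SD. A count of 0 over both genes could only stay at 0. Cyp11b2 had 0 genomic reads, so leaving such models out could not change its level or share. Per kb of annotated transcript the mean ratio of the pair was 2.74 instead of 5.34, a value that depends on annotated lengths that many model ends did not match. Removing a length trend left 132 genes called between the libraries instead of 275, and DESeq2 size factors gave 304, of which 22.7% were higher in replicate 2 (45.5% with the length trend removed). The share on the annotated transcript of Cyp11b1 was 91.6% without genomic models and the same 91.6% without models of 1 exon, and 93.2% without incomplete splice matches, instead of 89.1%. That of Cyp11b2 was 91.5% without incomplete splice matches instead of 84.3%. Here the alternative itself removes reads from the denominator. Leaving out a library gave levels of 7550 to 9656 CPM for Cyp11b1 and 1264 to 2048 CPM for Cyp11b2, a ratio of 4.72 to 5.97, annotated shares of 88.5% to 89.7% and 83.2% to 85.4%, and 0 reads over both genes. Adding the downstream new loci to each gene was chosen after seeing the data, and it moved no call. Each gene has 1 annotated transcript, so searching exons of the dominant transcript is the same search. No paired analysis was possible because there is 1 group only. Depth limits the splicing shares most in Cyp11b2, where 0 reads of 1042 and 1344 at intron 8 allow 0.288% and 0.223%.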
